A study of Arabidopsis thaliana with 6 samples.

Results

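The tau and phi glutathione S-transferases (GSTs) of Arabidopsis thaliana were followed in roots of the xal1-2 mutant and of wild-type (WT) plants. The members were taken by locus from the published class names, GSTU1 to GSTU28 for the tau class and GSTF2 to GSTF14 for the phi class. These are 41 of the 32833 genes in the table, 28 tau and 13 phi, and all 41 loci matched the reference annotation. GSTs join the tripeptide glutathione to reactive or foreign small molecules, and the conjugates are then moved into the vacuole. Tau and phi are the large plant classes, with many genes in tandem arrays, and several members are known to respond to herbicides, safeners, pathogens or drought. Others act in the synthesis or transport of plant compounds such as camalexin, glucosinolates and anthocyanins.

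The series compared 3 libraries of xal1-2, a loss-of-function mutant of the MADS-box gene XAL1, with 3 libraries of its Col-0 wild type, all from plants grown on 0.2X MS medium. Each library was made from RNA of whole roots of about 60 seedlings, taken 8 days after sowing without hypocotyls and cotyledons, so that cell types are mixed and a single mutant allele stands for loss of XAL1. From 6978879 to 9247089 reads per library were assigned to genes. In such bulk samples fewer cells of a type and less RNA per cell cannot be told apart.

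XAL1 transcript was at 76.5, 102.0 and 103.2 scaled counts in xal1-2 and at 263.8, 250.1 and 268.7 in WT, and the libraries fit their labels (log2 fold change -1.48 ± 0.14 (SE), limma adjusted p = 0.00034). Scaled counts are reads per gene divided by a size factor per library. Of 8 root marker genes all had reads in every group, and the endodermal gene CASP1 was the single one called, at 1365, 1452 and 1247 scaled counts in xal1-2 and 2174, 2079 and 1812 in WT, with a mean of 1354 ± 103 in xal1-2 and 2022 ± 188 in WT (SD, n = 3 each; limma adjusted p = 0.0185). With a library left out, 1 root marker was called without WT replicate 3 or without xal1-2 replicate 2, and none without any other library. Summed over 5 green tissue markers, xal1-2 libraries had 927.2 to 1842.5 scaled counts and WT libraries 1067.8 to 1662.4, and none of the 5 was called by DESeq2, edgeR, limma-voom or limma or had an unadjusted limma p under 0.05. Of 4 seed storage markers 3 were at 0 in every library. What part a change in tissue make-up had in the results below was not tested.

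The promoter windows of 3 genes on which the results turn are shown first. GSTU25 was the member that rose, GSTU26 is its neighbour and fell, and GSTF4 was the phi member that fell. Each window holds the 250 bases before the annotated start of the gene, 5′ to 3′ on the gene's strand, from the RefSeq TAIR10.1 sequence, and capitals mark the motifs described further on. The windows are chr1:5871774-5872023 (plus strand) for GSTU25, chr1:5875045-5875294 (plus strand) for GSTU26 and chr1:666472-666721 (minus strand) for GSTF4.
GSTU25: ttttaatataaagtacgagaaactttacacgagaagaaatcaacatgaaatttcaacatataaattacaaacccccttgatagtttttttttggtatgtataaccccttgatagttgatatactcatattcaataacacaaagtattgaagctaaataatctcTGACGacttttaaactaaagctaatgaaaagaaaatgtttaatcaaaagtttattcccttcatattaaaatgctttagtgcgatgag
GSTU26: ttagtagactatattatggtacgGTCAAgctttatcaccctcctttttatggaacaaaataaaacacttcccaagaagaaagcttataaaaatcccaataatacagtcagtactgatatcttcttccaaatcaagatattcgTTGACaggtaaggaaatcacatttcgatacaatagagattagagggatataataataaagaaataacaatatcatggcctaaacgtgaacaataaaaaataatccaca
GSTF4: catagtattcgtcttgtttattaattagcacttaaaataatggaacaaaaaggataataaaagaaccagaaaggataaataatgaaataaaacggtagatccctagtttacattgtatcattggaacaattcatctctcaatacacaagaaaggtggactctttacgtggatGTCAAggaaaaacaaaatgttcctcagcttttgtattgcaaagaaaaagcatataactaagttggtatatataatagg

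Both classes were dominated by a few strongly expressed genes. Levels between genes are given as scaled counts per kb of exon, so that gene length does not set the order. In the tau class GSTU19, a safener-inducible enzyme, stood first in both genotypes, at 10982 per kb in xal1-2 and 14147 ± 1642 per kb in WT (SD over 3 libraries). In WT roots 99.97% of expressed genes lay below it. GSTU8 (2052.6 per kb in xal1-2 and 2097 ± 344 in WT) and GSTU26 (982 and 1638 ± 374) followed in WT, and GSTU25 (2552 and 1344 ± 256) and GSTU7 (1194 and 1333 ± 130.2) came next. From GSTU8 down to GSTU7 the ranges of neighbours in this order overlapped among the WT libraries, so that the order is not resolved there. In xal1-2 GSTU25 stood second and GSTU26 sixth by the mean. The xal1-2 libraries of GSTU25 overlapped those of GSTU8, and those of GSTU26 overlapped those of GSTU27 (972 per kb in xal1-2). These ranks are thus not resolved either.

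In the phi class GSTF9 led, at 9121 per kb in xal1-2 and 11161 ± 980 in WT. It was followed by GSTF10, a dehydration-responsive gene, at 7280 per kb in xal1-2 and 7859 ± 312 in WT, and by GSTF8, a stress-inducible gene, at 3574 and 4128 ± 36.6. These 3 genes were well separated from one another and from GSTF7, the fourth, at 1247 per kb in xal1-2 and 776 ± 203 in WT. At the other end GSTF5 had 0 reads in all 6 libraries, which allows up to 3 of 50049019 reads, for counting error alone. GSTU15 had a single read, in WT replicate 1. With a mean scaled count of at least 10 over the libraries as the limit, 24 tau and 11 phi members were expressed, and the low ones were GSTU3, GSTU12, GSTU15, GSTU21, GSTF5 and GSTF12.

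**Figure D1:**
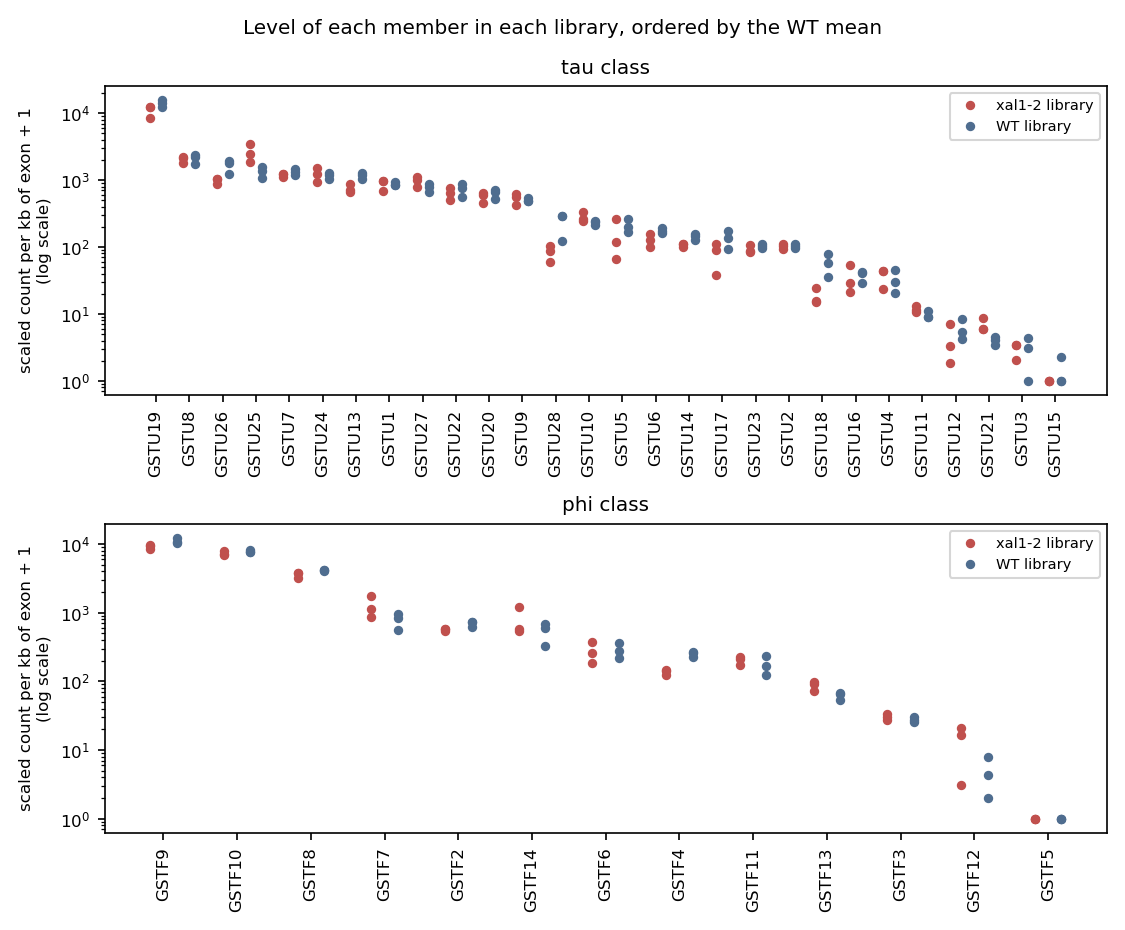
Scaled count per kb of exon plus 1, on a log scale, for each of the 41 members in each library, xal1-2 in red to the left of WT in blue, members ordered by the WT mean within a class. GSTU19 leads the tau class at 10982 per kb in xal1-2 and 14147 in WT, GSTF9 leads the phi class at 9121 and 11161, and GSTF5 sits at 0 in every library.

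The most abundant members themselves were not called. GSTU19 was at 9520.1, 13640.6 and 13739.4 scaled counts in xal1-2, against 16036.2, 17581.1 and 13916.9 in WT. The xal1-2 libraries all lay below the WT libraries, by a narrow margin, and the log2 fold change was -0.38 (SE 0.21; limma adjusted p = 0.345). Without xal1-2 replicate 1, the lowest library, it was -0.20 (limma adjusted p = 0.650). GSTF9 was at 11967.2, 10443.8 and 11326.0 in xal1-2 and 13319.0, 12838.5 and 15128.8 in WT (log2 fold change -0.29, SE 0.17, limma adjusted p = 0.387). GSTF8 was at 7584.4, 9098.8 and 8994.6 in xal1-2 and 9948.2, 9787.2 and 9927.7 in WT (-0.21, SE 0.15, limma adjusted p = 0.484). As for GSTU19, the genotypes did not overlap for GSTF9 and GSTF8, while xal1-2 libraries were the more variable for GSTF8. GSTF10 was at 8059.2, 7717.3 and 8945.2 in xal1-2 and 9296.9, 8765.8 and 8627.3 in WT, which overlapped. GSTU8 overlapped too, at 2455.1, 2925.3 and 2987.9 in xal1-2 and 3002.7, 3222.0 and 2324.1 in WT. GSTU19 made up 44.9 ± 1.66% of the scaled counts of the tau class in xal1-2 and 50.65 ± 0.631% in WT (SD, n = 3 each).

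Changes were tested with limma on log2(scaled count + 1) for all 24441 genes with a read, and a gene was called at an adjusted p under 0.05. Of the 40 members tested, 6 were called (15%), 1 higher and 5 lower in xal1-2. Over all genes tested 3.93% were called, 1.66% higher and 2.27% lower, and among genes with a mean of at least 10 the share was 4.71%. The split over all genes, 405 higher and 556 lower, became 569 and 401 when libraries were scaled by their totals, with the same 6 members called. In the tau class GSTU25 rose, GSTU13, GSTU18, GSTU26 and GSTU28 fell, and 23 of 28 were not called. In the phi class GSTF4 fell and 11 of the 12 tested were not called. The median log2 fold change was -0.17 for tau (19 members below 0 and 9 above), 0.01 for phi (6 below and 6 above) and -0.00398 for all genes. Single libraries moved both medians: without xal1-2 replicate 1 they were -0.03 for tau and 0.17 for phi, while leaving out xal1-2 replicate 3 gave a phi median of -0.07 and leaving out WT replicate 3 gave 0.14. Over phi members with a mean of at least 10 the median was -0.09, so that its sign is not settled. The genotypes did not overlap in 4 members that were higher in xal1-2 and in 11 that were lower, where 12.1% and 11.7% of all genes tested did so. All 6 called members also passed the fold change of 1.5 that the study used, a limit passed together with the adjusted p by 2.88% of all genes tested.

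edgeR and DESeq2, run on the reads recovered from the scaled counts, called the same 6 members and no other, and limma-voom called 5 of them, all but GSTU28 (adjusted p = 0.0564). The count depended on single libraries, as did that over all genes. Without xal1-2 replicate 1, 2 or 3 limma called 0, 1 and 3 members and 81, 326 and 535 genes in all. In the first of these fits, 12 members had an unadjusted p under 0.05. The share of all genes at that p was not counted, so that no result is read from this number. Without WT replicate 1, 2 or 3 limma called 2, 1 and 3 members and 430, 193 and 871 genes in all. GSTF4 was called in every fit that left out a library except the one without xal1-2 replicate 1. Of the others, GSTU18 was called in 2 of the 6 fits that left out a library, GSTU26 and GSTU28 in 1, and GSTU25 and GSTU13 in none, with each keeping its sign in all 6.

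**Figure D2:**
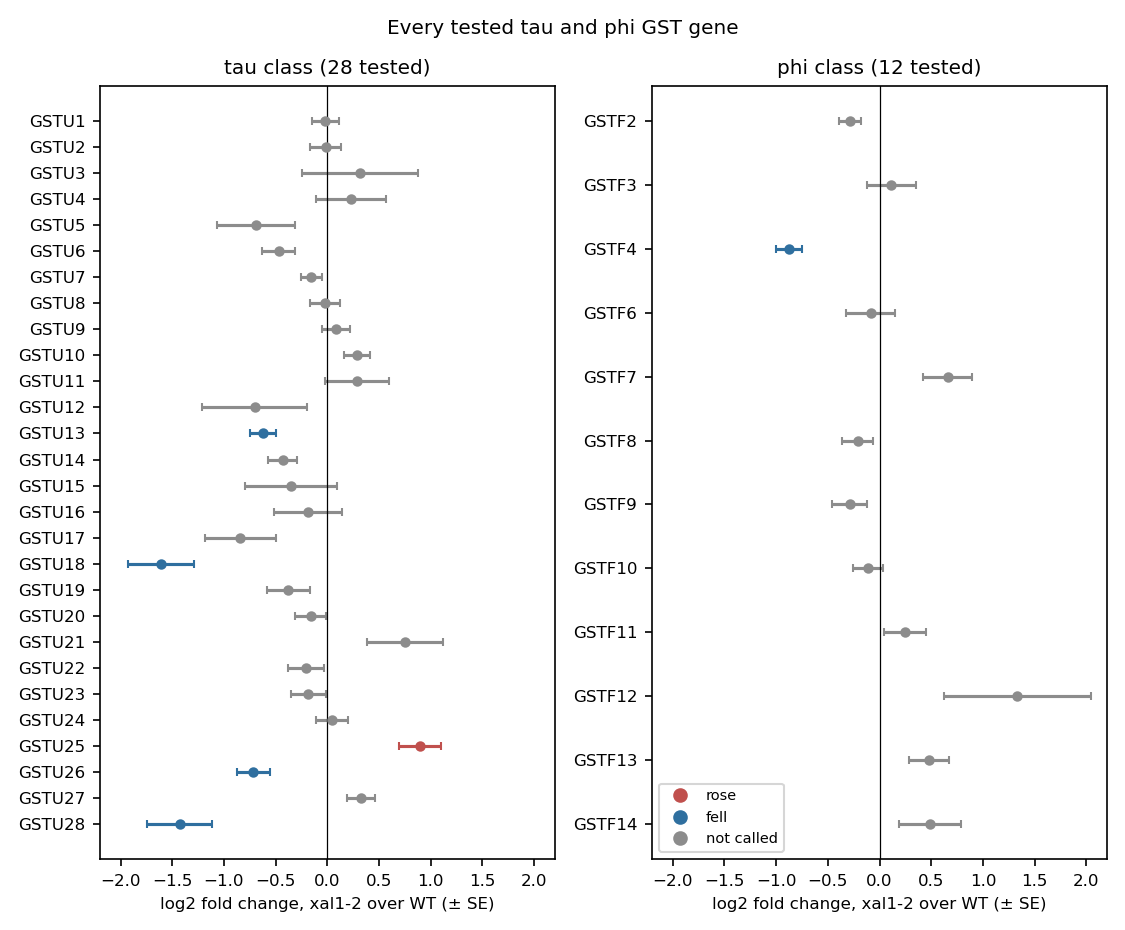
Log2 fold change, xal1-2 over WT, with its standard error for the 28 tau and 12 phi members tested. GSTU25 (0.90, red) rose, GSTU18 (-1.61), GSTU28 (-1.43), GSTF4 (-0.87), GSTU26 (-0.72) and GSTU13 (-0.62) fell (blue), and grey members were not called.

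The member that rose was GSTU25 (AT1G17180; chromosome 1, 5872024 to 5873124, plus strand, 2 exons in TAIR10.1). With its neighbour GSTU24 its enzyme is known to act on the explosive TNT. GSTU25 was at 1859.3, 3460.3 and 2458 scaled counts in xal1-2, against 1389.5, 1612.1 and 1093.9 in WT. Every xal1-2 library lay above every WT library, and xal1-2 replicate 2 was highest. The mean was 2593 ± 809 in xal1-2 and 1365 ± 260 in WT (SD, n = 3 each). The log2 fold change was 0.90 ± 0.20 (SE), with an adjusted p of 0.0363 in limma.

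GSTU26 (AT1G17190; chromosome 1, 5875295 to 5876620), which follows GSTU25 in the same tandem cluster and on the same strand, moved the other way. It was at 921.1, 1121.5 and 1093.3 in xal1-2, against 1917.1, 2027.5 and 1289.5 in WT, where replicate 3 stood below the other libraries. The genotypes did not overlap, and the mean was 1045 ± 108 in xal1-2 and 1745 ± 398 in WT. The log2 fold change was -0.72 ± 0.16 (SE), with an adjusted p of 0.0339 in limma. GSTU24 (AT1G17170), the first gene of the cluster, was at 1136.8, 1831.3 and 1459.5 in xal1-2 and 1442, 1524.0 and 1255.7 in WT. These values overlapped (log2 fold change 0.05, SE 0.16, limma adjusted p = 0.896). The sum over the cluster was 5114 ± 1251 in xal1-2 and 4517 ± 788 in WT, with overlapping libraries.

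Within a library the ratio of these neighbours is free of the scaling between libraries. The log2 ratio of GSTU25 over GSTU26 was 1.01, 1.62 and 1.17 in xal1-2 and -0.46, -0.33 and -0.24 in WT, so GSTU25 exceeded GSTU26 in each xal1-2 library and in no WT library. The log2 ratio of GSTU25 over GSTU24 was 0.71, 0.92 and 0.75 in xal1-2 and -0.05, 0.08 and -0.20 in WT. The neighbour pairs were chosen after their values were seen, and the ratios carry no test. The coding sequences of GSTU24 and GSTU25 were 79.4% identical, and no stretch of 50 bases in the transcripts of these 3 genes was found in another annotated transcript.

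**Figure D3:**
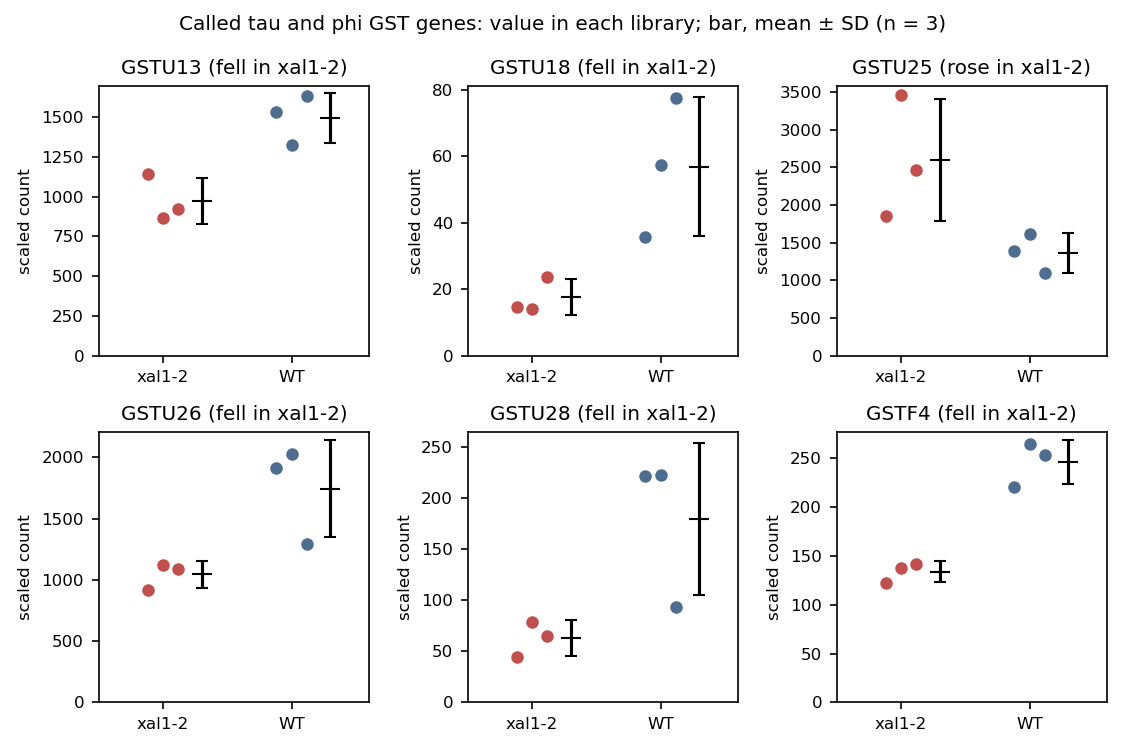
Scaled counts of the 6 called members in each library, xal1-2 in red on the left and WT in blue on the right, with the mean ± SD (n = 3) as a black bar. In each panel the genotypes do not overlap, with GSTU25 higher in xal1-2 and the other 5 lower.

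Of the members that fell, GSTU18 (AT1G10360; chromosome 1, 3395551 to 3396953, minus strand, 2 exons) had the largest fold change and the lowest level. It was at 14.8, 14.2 and 23.8 scaled counts in xal1-2, against 35.8, 57.3 and 77.7 in WT, from 13 to 27 reads per xal1-2 library and 33 to 85 per WT library. The genotypes did not overlap although the WT libraries spread 2.17-fold. The mean was 17.6 ± 5.38 in xal1-2 and 56.9 ± 20.9 in WT. The log2 fold change was -1.61 ± 0.32 (SE), with an adjusted p of 0.0218 in limma. GSTU17 (AT1G10370), the drought-responsive gene ERD9, lies directly upstream on the same strand, and its annotated end overlaps the start of GSTU18, so reads there cannot be assigned to one of them. GSTU17 was at 43.4, 104.7 and 128.8 in xal1-2 and 108.6, 199.4 and 158.1 in WT, with overlapping groups (log2 fold change -0.84, SE 0.34, limma adjusted p = 0.205). The log2 ratio of GSTU18 over GSTU17 overlapped between the genotypes, at -1.49, -2.80 and -2.39 in xal1-2 and -1.57, -1.78 and -1.02 in WT.

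GSTU28 (AT1G53680; chromosome 1, 20038320 to 20039164, plus strand, 2 exons), a tau gene outside the tandem clusters, was at 44.5, 79.0 and 65.3 in xal1-2, against 221.5, 222.6 and 93.2 in WT. WT replicate 3 was close to the xal1-2 libraries, and the other WT libraries were well above them. The mean was 62.9 ± 17.3 in xal1-2 and 179 ± 74.4 in WT. The log2 fold change was -1.43 ± 0.31 (SE), with an adjusted p of 0.0321 in limma. Of the fits that left out a library, only the one without WT replicate 3 called GSTU28 (log2 fold change -1.84, limma adjusted p = 0.00693). Without xal1-2 replicate 1 its log2 fold change was -1.20 (limma adjusted p = 0.208).

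GSTU13 (AT1G27130; chromosome 1, 9425280 to 9426897, plus strand, 2 exons), a gene known from indole glucosinolate metabolism in immunity, was the most abundant member to fall after GSTU26. It was at 1139.1, 864.2 and 922.1 in xal1-2, against 1533.9, 1321.2 and 1630.4 in WT. The groups were separate and the mean was 975 ± 145 in xal1-2 and 1495 ± 158 in WT. The log2 fold change was -0.62 ± 0.13 (SE), with an adjusted p of 0.0233 in limma. Its neighbour GSTU14 (AT1G27140) also had separate groups, at 98.2, 107.4 and 107.7 in xal1-2 and 143.3, 155.4 and 126.1 in WT, but missed the threshold (log2 fold change -0.43, SE 0.14, limma adjusted p = 0.112). The ratio of this pair overlapped between the genotypes, at a log2 of 3.20 ± 0.28 in xal1-2 and 3.39 ± 0.30 in WT.

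**Figure D4:**
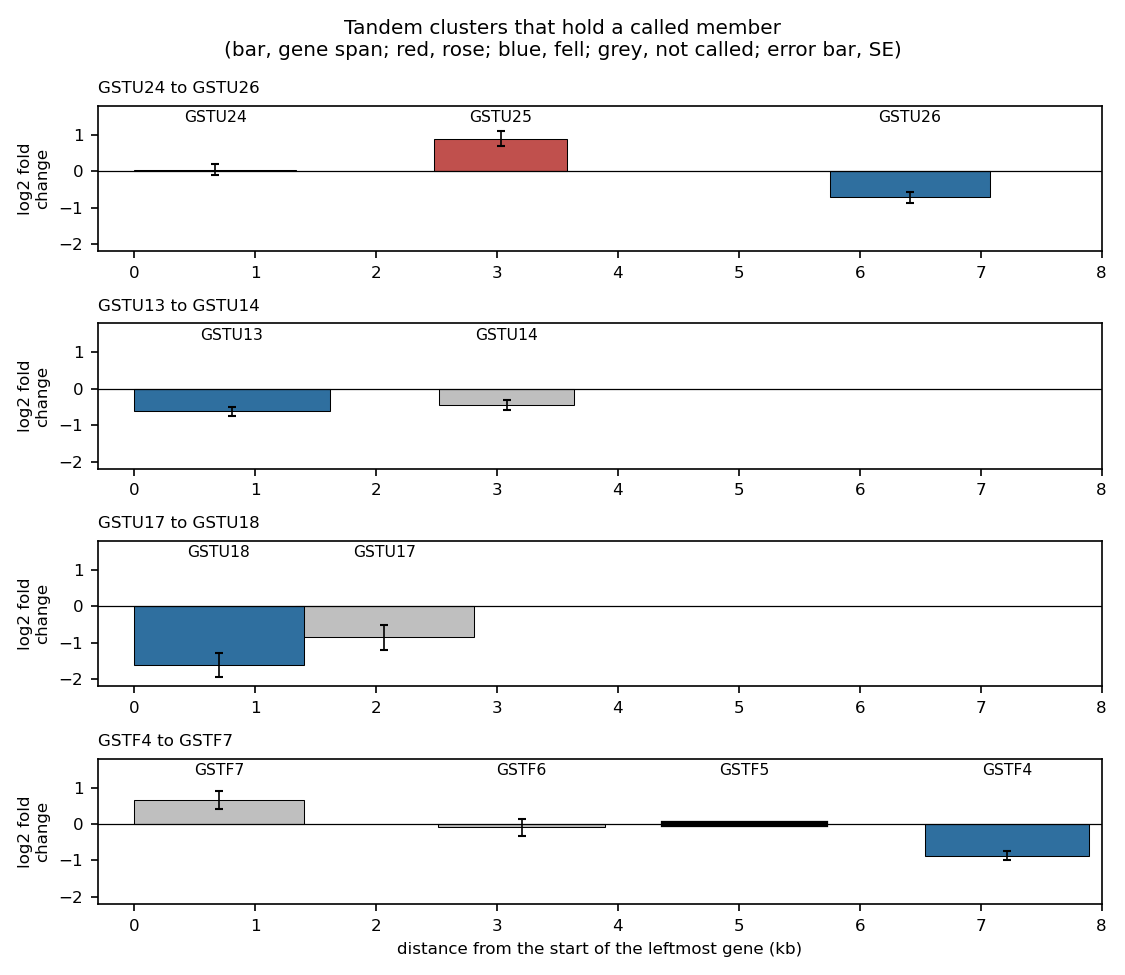
The 4 tandem clusters that hold a called member, with each gene drawn to scale along the chromosome (kb from the leftmost gene start) at the height of its log2 fold change, xal1-2 over WT, with the SE. GSTU25 (red, 0.90) rose beside GSTU26 (blue, -0.72), GSTU13 (-0.62) and GSTU18 (-1.61) each fell beside a neighbour that was lower without a call, and GSTF4 (-0.87) fell in a cluster in which GSTF7 was at 0.66 without a call. The flat black bar is GSTF5, which had no reads.

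The phi member that fell, GSTF4 (AT1G02950; chromosome 1, 665119 to 666471, minus strand, 5 exons), had the smallest adjusted p of the 41. It was at 122.1, 137.5 and 142.1 in xal1-2, against 220.4, 264.5 and 253.2 in WT. Both groups were tight and did not overlap, and the mean was 134 ± 10.5 in xal1-2 and 246 ± 22.9 in WT. The log2 fold change was -0.87 ± 0.13 (SE), with an adjusted p of 0.00469 in limma. The gene AT1G02952 on the opposite strand overlaps it. AT1G02952 averaged 0 in xal1-2 and 0.735 scaled counts in WT. Of the 50-base stretches of GSTF4, 14.6% occurred in transcripts of AT1G02952, so for that part the value of GSTF4 depends on how strand was used in counting.

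GSTF4 lies at one end of a cluster of 4 phi genes, in which GSTF5 was silent. GSTF6, a gene of camalexin synthesis, was at 221.4, 305.2 and 445.6 in xal1-2 and 254.0, 327.3 and 433.2 in WT, with no separation (log2 fold change -0.09, SE 0.24, limma adjusted p = 0.870). GSTF7, a pathogen-responsive gene, was at 1037.5, 1385.9 and 2116.1 in xal1-2 and 670.9, 999.4 and 1152.4 in WT (log2 fold change 0.66, SE 0.24, limma adjusted p = 0.155), with overlapping groups. Library by library GSTF6 and GSTF7 kept close step, and the log2 ratio of GSTF7 over GSTF6 was 2.22, 2.18 and 2.25 in xal1-2 and 1.40, 1.61 and 1.41 in WT, with no overlap. Their coding sequences were 94.3% identical, and 9.41% of the 50-base stretches of GSTF6 occurred in GSTF7 transcripts, so part of their reads may be split between them. The log2 ratio of GSTF4 over GSTF6 was -0.85, -1.14 and -1.64 in xal1-2 and -0.20, -0.31 and -0.77 in WT.

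**Figure D5:**
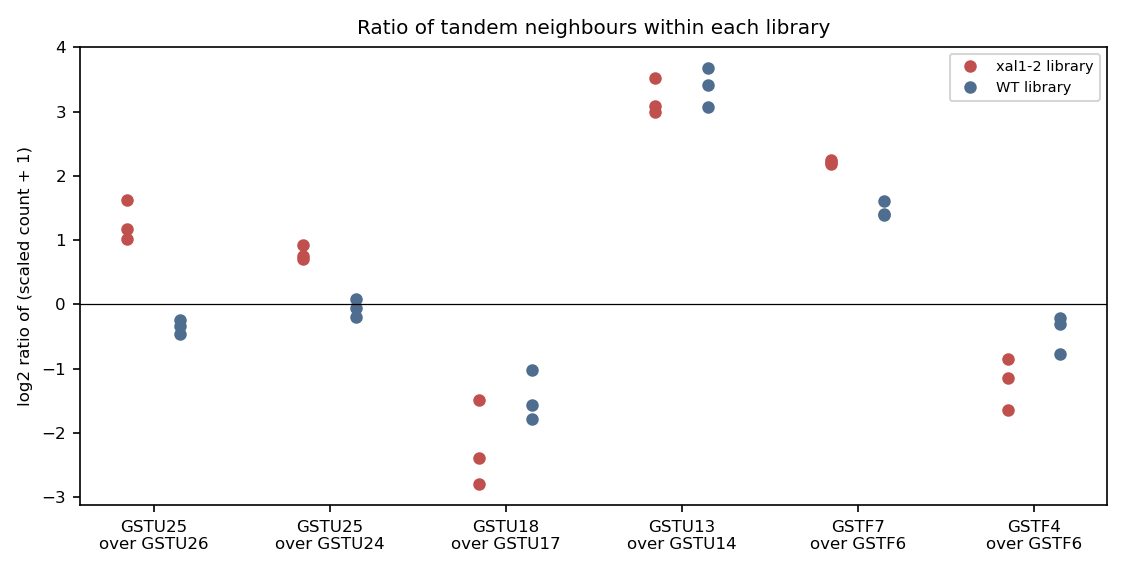
Log2 ratio of tandem neighbours within each library, xal1-2 in red to the left of WT in blue, computed from scaled count + 1. GSTU25 over GSTU26 lies between 1.01 and 1.62 in xal1-2 and between -0.46 and -0.24 in WT, and GSTF7 over GSTF6 between 2.18 and 2.25 in xal1-2 and between 1.40 and 1.61 in WT, while GSTU18 over GSTU17 and GSTU13 over GSTU14 overlap.

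The remaining clusters held no called member with DESeq2, edgeR, limma-voom or limma. In the cluster of 7 genes on chromosome 2, GSTU1 to GSTU7, 1 had an unadjusted limma p under 0.05. The summed level was 2519 ± 391 in xal1-2 and 2780 ± 42.9 in WT, with overlapping libraries. Here GSTU6 was lower without overlap (133.5, 171.2 and 206.5 in xal1-2, 218.2, 228.1 and 254.1 in WT, limma adjusted p = 0.120). Of the 50-base stretches of GSTU6, 27.2% occurred in transcripts of AT2G29430 on the opposite strand. For GSTU7 55.7% occurred in AT2G29410 or AT2G08340, and for GSTU2 63.3% in AT2G29485, also on the opposite strand. For those parts the values of these 3 members depend on how strand was used in counting. GSTU5 was at 83.3, 151.7 and 335.3 in xal1-2 and 212.8, 252.3 and 334.5 in WT, and its 4.02-fold spread among xal1-2 libraries was the widest of the 35 members with a mean of at least 10. In the main fit GSTU5 was not called (log2 fold change -0.69, limma adjusted p = 0.344). The fit without xal1-2 replicate 3, its highest library, was the only one to call it (log2 fold change -1.21, limma adjusted p = 0.0442). Leaving out the highest xal1-2 library lowers the xal1-2 mean in any case, so no result is read from this call. In the cluster GSTU19 to GSTU23 none had an unadjusted limma p under 0.05. The log2 fold changes of GSTU20, GSTU22 and GSTU23 lay between -0.20 and -0.16. GSTU21 had few reads and was higher without overlap, at 4.57, 7.10 and 4.41 scaled counts in xal1-2 and 3.26, 2.2 and 2.74 in WT (log2 fold change 0.75, SE 0.37, limma adjusted p = 0.290). The pairs GSTU11 and GSTU12, GSTU15 and GSTU16, and GSTF9 and GSTF10 had no member with an unadjusted limma p under 0.05. Summed levels were lower in xal1-2 without overlap for GSTU19 to GSTU23 (13705 ± 2643 in xal1-2, 17437 ± 1962 in WT). The same held for GSTF9 and GSTF10 (19486 ± 1154 in xal1-2, 22659 ± 1077 in WT) and for GSTU13 and GSTU14 (1080 ± 140 in xal1-2, 1637 ± 144 in WT). In the other clusters the sums overlapped, with GSTF4 to GSTF7 at 1971 ± 673 in xal1-2 and 1525 ± 351 in WT. The sums carry no test.

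Among the genes outside clusters, GSTU10 and GSTF13 were higher in xal1-2 without overlap and GSTF2 lower, none of them called. GSTU10 was at 285.3, 299.9 and 379.4 in xal1-2 and 268.1, 276.6 and 241.3 in WT (limma adjusted p = 0.244). AT1G74600 overlaps GSTU10 on the same strand and was also higher, at 39.4 ± 2.59 in xal1-2 and 24.3 ± 2.04 in WT (log2 fold change 0.68, limma adjusted p = 0.126). No 50-base stretch of the longest GSTU10 transcript occurred in transcripts of AT1G74600, and how reads in the overlap were assigned is not known. GSTF13 was at 87.9, 81.6 and 64.4 in xal1-2 and 47.8, 58.4 and 60.3 in WT (limma adjusted p = 0.197). GSTF2 encodes a protein that binds camalexin and other indoles. It was at 849.2, 799.4 and 847.1 in xal1-2 and 1079.1, 1077.7 and 898.4 in WT (limma adjusted p = 0.149). Its coding sequence was 94.5% identical to that of GSTF3, which was far lower at 30.7 ± 3.54 in xal1-2 and 28.2 ± 2.58 in WT, and reads that match both genes may be split between them. AT4G02510, on the opposite strand, overlaps GSTF2, and 53.1% of the 50-base stretches of GSTF2 occurred in transcripts of GSTF3 or AT4G02510. AT4G02510 averaged 917 ± 80.0 in xal1-2 and 1099 ± 74.5 in WT (log2 fold change -0.26), so the value of GSTF2 too depends on how strand was used. GSTF12, needed for anthocyanin transport, had a log2 fold change of 1.33 with an SE of 0.71, on values of 2.28, 22.2 and 16.8 in xal1-2 and 1.09, 7.71 and 3.66 in WT (limma adjusted p = 0.333). GSTF14, GSTF11, GSTU27 and GSTU9 had log2 fold changes of 0.49, 0.24, 0.32 and 0.08, and that of GSTF3 was 0.11, all without a call. Of the 50-base stretches of GSTF11, 89.3% occurred in transcripts of AT3G03200 on the opposite strand, so the value of GSTF11 depends on how strand was used in counting. AT3G03200 was lower in xal1-2 without overlap, at 14.2 ± 1.71 in xal1-2 and 30.3 ± 5.61 in WT (log2 fold change -1.03, limma adjusted p = 0.0613).

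The promoter windows of all 41 members were searched on both strands for 4 motifs. TGACG is the core of the as-1 element bound by TGA factors, TTGAC is the core of the W-box bound by WRKY factors, and both share letters where a T comes before the first of them. The as-1 core occurred in 11 of 28 tau and 3 of 13 phi windows, where 18.6% of 27443 windows of protein-coding genes held it. No window was cut where it ran into another annotated gene. Of those with the as-1 core, the windows of GSTU5, GSTU7, GSTU24 and GSTF8 ran into one. The W-box core occurred in 17 tau and 7 phi windows, and in 44.9% of all windows. The mitochondrial dysfunction motif, found in 0.74% of all windows, and the CArG box bound by MADS-box factors, found in 2.52%, occurred in none of the 41, which says only that these letters are not in these windows. Of the 6 called members, GSTU25 alone had TGACG in its window, 87 bases before the gene start. GSTU24 had it 169 bases before the start. The stretches around the core, shown because this pair shares the motif without sharing the change, were as follows, with the core in capitals.
GSTU25: ataatctcTGACGacttttaa
GSTU24: aagcatgcTGACGcaggcagt
GSTU22: aagcataaTGACGtaagcagt
GSTU22, of the GSTU19 cluster, is added because the letters around its core are close to those of GSTU24, and it was not called either. The core was also in GSTU1, GSTU3, GSTU5, GSTU6, GSTU7, GSTU9, GSTU11, GSTU27, GSTF3, GSTF8 and GSTF10, none of them called. In the windows printed further above, GSTU26 holds TTGAC once on each strand and GSTF4 holds it once, on the other strand, where it reads GTCAA.

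Other genes of glutathione metabolism were counted against 1.66% of all genes called higher and 2.27% called lower. Of 12 genes of the other GST classes (theta, zeta, lambda, dehydroascorbate reductases and TCHQD), limma, edgeR and limma-voom called none and DESeq2 called 1, and 2 had an unadjusted limma p under 0.05. DHAR1, a dehydroascorbate reductase, had the smallest, at 2379.7, 3617 and 3888 scaled counts in xal1-2 and 4893, 4711 and 5805 in WT (log2 fold change -0.67, SE 0.18, limma adjusted p = 0.0630). Their median log2 fold change was 0.10. Of 13 genes of glutathione synthesis, reduction and breakdown 1 rose and none fell. GGCT2;2, a γ-glutamyl cyclotransferase that cleaves glutathione, was at 1365, 1302 and 1369.5 in xal1-2 and 799, 670.0 and 828 in WT, with no overlap (log2 fold change 0.82, SE 0.10, limma adjusted p = 0.00245). GSH1 and GSH2, which make glutathione, and the reductases GR1 and GR2 were not called.

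None of the 3 vacuolar ABCC transporters of conjugates was called by DESeq2, edgeR, limma-voom or limma or had an unadjusted limma p under 0.05, and ABCC2 had the smallest (log2 fold change -0.14, SE 0.11, limma adjusted p = 0.541). Nor was any of 7 TGA factors or their partner SCL14 called by these tools or under that p, with log2 fold changes between -0.23 and 0.26 (smallest p for TGA7, limma adjusted p = 0.325). Among 7 other genes known from xenobiotic responses the glucosyltransferase gene UGT74E2 rose and 6 were not called. UGT74E2 was at 801, 1027 and 912 in xal1-2 and 242, 219 and 474 in WT (log2 fold change 1.63, SE 0.23, limma adjusted p = 0.00441), and like GGCT2;2 it was called in every fit that left out a library except the one without xal1-2 replicate 1. Anthocyanin genes were nearly silent, and of 7 on the list 3 had a read in any library. None of these was called by limma or DESeq2 or had an unadjusted limma p under 0.05 (smallest for DFR, limma adjusted p = 0.338).

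In glucosinolate synthesis, in which several GSTs take part, 2 of 13 genes rose and none fell, where 1.66% of all genes tested were called higher and 2.27% lower. Both act in chain elongation of methionine-derived glucosinolates. BCAT4 was at 2861, 2214 and 2796 in xal1-2 and 977, 1159 and 1891 in WT (log2 fold change 1.02, SE 0.20, limma adjusted p = 0.0230). MAM1 was at 1243, 757 and 923 in xal1-2 and 456, 445 and 693 in WT (0.87, SE 0.19, limma adjusted p = 0.0330). The groups were separate for both genes. Both were called without WT replicate 3 or xal1-2 replicate 2, and neither without any other library. CYP79B2, an entry enzyme of indole glucosinolates, was lower without overlap and without a call (log2 fold change -0.55 ± 0.15 (SE), limma adjusted p = 0.0630), while DESeq2 called 2 genes of this list lower. Of the GSTs tied to this pathway in Arabidopsis, GSTU13 fell, as described above, and GSTF9, GSTF10, GSTF11 and GSTU20 were not called.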

How the data were processed

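Root RNA was made into TruSeq Stranded mRNA libraries and read from both ends, per the labels' protocols. The submitters' processing notes name Trimmomatic 0.39, FastQC 0.11.9, DESeq2, Subread 2.0.1 and build TAIR10. The strand setting of the counting was not given in the sources used here. The authors deposited a signal per gene and library, read counts divided by a size factor. Within 0.001 of a read, 100% of values above 0 were whole reads after multiplication by that factor. The authors also deposited log2 fold changes, a score (test statistic and standard error) and p-values, not used for the results here.

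Genotypes were compared on log2(scaled count + 1) over the 24441 genes with a read in any library. The model held genotype alone and was fitted with limma 3.58.1 and its trend option (R 4.3.3), with Benjamini-Hochberg adjustment. Fold changes on this scale understate low genes. Alternatives were edgeR 4.0.16, DESeq2 1.42.0 and limma-voom on recovered reads, library totals, TMM factors, pseudocounts of 0.1 and 5, a mean of at least 10, the replicate number as a block, and each library left out. Replicates are biological per the labels, and no pair of libraries agreed within sampling noise.

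Exon lengths, coordinates and sequences are from RefSeq TAIR10.1, and coding identity from global alignments (Biopython 1.88). A tandem cluster is a run of members of a class with locus numbers at most 50 apart. Values in every library are given for called members and called list genes, the 3 highest members of each class per kb in WT, and neighbours of called members in their tandem clusters. Members with separate groups, GSTU5, GSTF12 and DHAR1 were added after their values were seen. For pathway lists with no call, the gene with the smallest p is named. The window of GSTU18, the largest fall, lies within GSTU17 and is not shown. Protein sequences were not used here. Members and lists were chosen with earlier results of these data known.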

Additional observations from a re-analysis of the deposited data

How the results depend on the processing

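The 6 calls were made again with edgeR, DESeq2, library totals, TMM factors, pseudocounts of 0.1 and 5 and a mean of at least 10, and limma-voom lost GSTU28 alone (adjusted p = 0.0564). Library totals gave 569 genes higher and 401 lower, against 405 and 556 in the main test, and no called member changed sign. GSTU8, at -0.02 in the main test, was at 0.038 with library totals and between -0.16 and 0.073 with a library left out, above 0 without WT replicate 1 (0.022), WT replicate 2 (0.073) or xal1-2 replicate 1 (0.067). The cause was not tested. Leaving out a library gave 81 to 871 called genes, 0 to 2 tau members and 0 to 1 phi members, with fewer samples fitted. Whether the replicate numbers pair the libraries was not settled. The deviations of same-numbered libraries from their group means correlated at 0.010, 0.28 and 0.011. The value for the replicates 2 was the highest of all pairs, while xal1-2 replicate 1 correlated best with WT replicate 3 (0.18). For xal1-2 replicate 3 the correlation was near 0 with every WT library, from -0.012 to 0.011. With the replicate block 839 genes and 8 members were called, 2 of them phi, as GSTF7 (0.66, adjusted p = 0.0169) and GSTU17 (-0.84, adjusted p = 0.0495) were added. With 3 libraries a group and 13 to 27 reads per xal1-2 library, GSTU18 had the largest standard error of the 6 called members (0.32).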
